A study of Mus musculus with 7 samples.

Results

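The TGF-beta and activin ligands and receptors were examined in the dental epithelium of lower incisors of newborn (PN0) mice. They are 10 genes taken by name, in a set chosen with earlier results of these data known. The ligand genes are Tgfb1, Tgfb2, Tgfb3, Inhba and Inhbb, and the type I receptors are Tgfbr1 and Acvr1b. The type II receptors are Tgfbr2 and Acvr2a, and the co-receptor is Tgfbr3. All 10 were found among the 25700 genes of the count files, and all 10 were among the 14791 genes with enough counts to be tested. The mutants were K14;Nogo-A pups, with the genotype K14cre cre/+; Nogo-A fl/fl, in which a keratin 14 promoter drives the Cre recombinase in epithelium and removes Nogo-A there. The controls were wild-type pups. There were 4 libraries of K14;Nogo-A pups (numbered 1, 2, 7 and 10) and 3 of wild-type pups (numbered 3, 8 and 9). Each library came from the posterior part of the epithelium of 1 pup, both lower incisors pooled. The study sampled 4 pups per genotype, and 1 wild-type pup was not analysed here.

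In this family a dimeric ligand binds a pair of type II receptors, which phosphorylate a pair of type I receptors, and these phosphorylate Smad2 and Smad3, which enter the nucleus with Smad4. TGF-beta ligands use Tgfbr2 and Tgfbr1, while activins, which are dimers of the Inhba or Inhbb product, use Acvr2a or its relative Acvr2b with Acvr1b. Mice without Inhba lack incisors and lower molars, and in the mouse incisor follistatin, which traps activin, keeps the lingual epithelium free of ameloblasts, the cells that make enamel.

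Between 20929207 and 29728532 counts fell on genes in the K14;Nogo-A libraries, and between 21021158 and 41219439 in the wild-type ones. Expression of Rtn4, which encodes Nogo-A, was at 297 to 344 CPM in K14;Nogo-A, against 277 to 346 CPM in wild-type (CPM, the count relative to the TMM-scaled size of the library). The count covers all its transcripts and does not check the deletion of the exon particular to Nogo-A. The 12 epithelial markers, among them Krt5, Krt14 and Cdh1, were present in every library, with a summed level of 9162 to 10746 CPM in K14;Nogo-A, against 6581 to 10580 CPM in wild-type. The 24 mesenchyme markers had a mean log2 CPM of 6.80 to 6.97 in K14;Nogo-A, against 7.36 to 7.47 in wild-type, so that the samples also held RNA of cells other than epithelium. The genotypes did not overlap in that mean, while the summed level of these markers did overlap (12434 to 34516 CPM in K14;Nogo-A, against 28399 to 43200 CPM in wild-type). None of these 24 markers was at 0 in any library. The 8 endothelial markers summed to 164 to 277 CPM in K14;Nogo-A, against 268 to 294 CPM in wild-type. K14;Nogo-A replicate 1 and wild-type replicates 3 and 8 carried RNA of the Y chromosome (Ddx3y, Eif2s3y, Kdm5d, Uty; mean log2 CPM 4.94 to 5.27), and the other libraries nearly none (-3.71 to -3.04). No label states whether a pup was male or female. K14;Nogo-A replicate 1 also stood apart in Amelx, the gene of the enamel protein amelogenin, which took 2.76% of its counts against 5.81% to 7.08% in the other K14;Nogo-A libraries and 1.11% to 3.36% in wild-type.

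The DNA before the start of the gene is shown for Inhba and Inhbb, the activin subunit genes with log2 fold changes of opposite sign, and for Acvr1b, the activin receptor that lay higher in every mutant library. The sequences are from RefSeq on GRCm38.p6, whose promoter table held 8 of the 10 genes, and run 5′ to 3′ on the strand of the gene. They end where the first annotated exon begins. Capitals mark matches, on either strand, to GGGCGG (the GC box), TATAAA (the TATA box) or CACGTG (an E-box). No match to TGACGTCA or TGANTCA, the CRE and AP-1 motifs, lay in these windows.
Inhba, chr13:16011601-16011850, plus strand: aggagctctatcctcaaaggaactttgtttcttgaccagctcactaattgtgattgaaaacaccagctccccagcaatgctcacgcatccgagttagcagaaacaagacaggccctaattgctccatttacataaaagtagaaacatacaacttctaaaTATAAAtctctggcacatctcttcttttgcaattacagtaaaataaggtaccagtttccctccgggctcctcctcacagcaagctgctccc
Inhbb, chr1:119422249-119422498, minus strand: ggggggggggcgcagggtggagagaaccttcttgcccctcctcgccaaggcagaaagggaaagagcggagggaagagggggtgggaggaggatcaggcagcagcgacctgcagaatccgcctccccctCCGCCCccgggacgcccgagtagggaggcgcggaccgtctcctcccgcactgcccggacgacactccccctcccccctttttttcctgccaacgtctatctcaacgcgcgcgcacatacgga
Acvr1b, chr15:101173822-101174066, plus strand: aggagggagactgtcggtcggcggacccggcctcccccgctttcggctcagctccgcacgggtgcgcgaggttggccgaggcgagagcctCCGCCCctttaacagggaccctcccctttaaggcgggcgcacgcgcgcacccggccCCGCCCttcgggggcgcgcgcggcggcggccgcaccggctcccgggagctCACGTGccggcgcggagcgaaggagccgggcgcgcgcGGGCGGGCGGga
The Inhba stretch had a GC content of 43.2% and 1 TATAAA, the Inhbb stretch 68.0% and 1 GGGCGG, and the Acvr1b stretch 78.8%, 4 GGGCGG, of which 2 overlap, and 1 CACGTG. Of 32851 RefSeq stretches of 250 bases, 32.7% held GGGCGG, 12.4% TATAAA, 6.02% CACGTG, 6.75% TGANTCA and 1.55% TGACGTCA. These matches describe the letters and say nothing of a factor.

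By level the family had an abundant and a scarce part. Per kb of exon, Tgfb3 had the highest median over the 7 libraries, at 35.6 CPM per kb, before Tgfbr2 at 32.7, Tgfb2 at 27.8, Tgfb1 at 26.1, Tgfbr1 at 19.1 and Acvr1b at 16.3. Then came Acvr2a at 4.31, Inhba at 2.99, Tgfbr3 at 2.27 and Inhbb at 2.04 CPM per kb. The ranges of neighbours in this order overlapped except between Tgfb1 and Tgfbr1, between Acvr1b and Acvr2a, and between Acvr2a and Inhba. Tgfb3 was above Tgfbr2 in 6 of the 7 libraries, and Inhba above Tgfbr3 in 4 of 7. This order depends on the length used, the union of all annotated exons (5042 bp for Tgfb1, 3383 bp for Tgfb3). Before division by length, Tgfb3 had the lowest mean CPM of the 3 TGF-beta ligand genes. It was at 120 CPM in K14;Nogo-A, against 132 for Tgfb1 and 149 for Tgfb2. In wild-type it was at 118 CPM, against 139 and 175. Among all genes tested, Tgfbr2 stood at the 96.2 percentile of mean CPM and Inhbb at the 29.4 percentile.

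**Figure D1:**
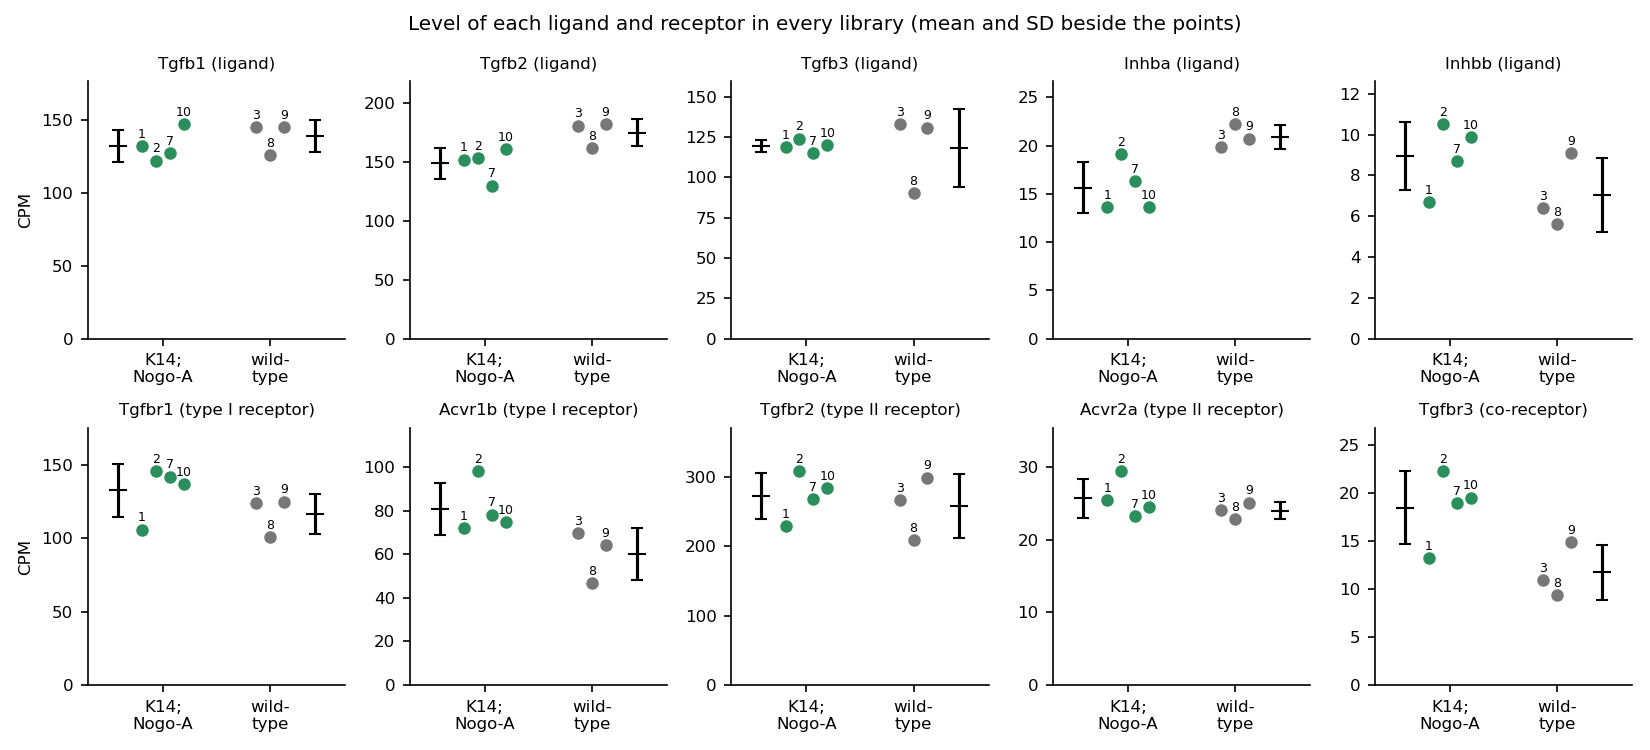
CPM of each of the 10 genes (vertical axes, each from 0) in the 4 K14;Nogo-A libraries (green) and the 3 wild-type libraries (grey), numbered by replicate, with mean and SD beside the points. Inhba and Tgfb2 lie lower, and Acvr1b higher, in every K14;Nogo-A library than in every wild-type library, while Tgfbr3 in K14;Nogo-A replicate 1 (13.2 CPM) lies below wild-type replicate 9 (14.9 CPM).

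K14;Nogo-A was compared with wild-type to ask which transcripts differ when Nogo-A is deleted from the epithelium. At an adjusted p under 0.05 none of the 10 genes was called higher or lower by edgeR's quasi-likelihood test, where 0.0338% of all genes tested were called. By DESeq2 1 member was called higher (Tgfbr3) and 0 lower, against 1.21% and 1.38% of the 12208 genes to which it gave an adjusted p. By edgeR's likelihood-ratio test 0 were called higher and 0 lower (0.392% and 0.73% of all genes), and by limma-voom 0 and 0 (0% and 0.027%). At an unadjusted P of 0.05 or less 2 members were higher (Acvr1b and Tgfbr3) and 2 lower (Tgfb2 and Inhba), which is 4 of 10, against 6.25% of all genes tested that were higher, 6.66% lower and 12.9% in either direction. The study's thresholds (P up to 0.05 without adjustment, and a fold change of 0.5 or more on the log2 scale, up or down) were passed by Tgfbr3 alone, in the higher direction, against 2.02% of all genes tested in that direction and 4.77% in either. The genotypes did not overlap in 3 of the 10 genes (Acvr1b higher, Tgfb2 and Inhba lower), against 5.43% of all genes tested that were higher, 6.09% lower and 11.5% in either direction. Of the 10 log2 fold changes 7 were positive and 3 negative, with a median of 0.09, and the median over all genes tested was -0.01. The 10 genes were chosen with earlier results of these data known, so setting them against all genes is description and no test.

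Of the 3 TGF-beta ligand genes, Tgfb2 had the one difference with an unadjusted P of 0.05 or less. Tgfb2 (ENSMUSG00000039239, chromosome 1 of GRCm38, 186622792 to 186705989), whose ligand needs betaglycan for tight binding to Tgfbr2, was at 152, 153, 130 and 161 CPM in K14;Nogo-A replicates 1, 2, 7 and 10 and at 181, 162 and 182 CPM in wild-type replicates 3, 8 and 9. All 4 K14;Nogo-A libraries lay below the 3 wild-type libraries, although replicate 10 and wild-type replicate 8 were nearly level. In the fit the log2 fold change came to -0.23 (standard error, SE, 0.10, 95% interval -0.44 to -0.02, adjusted p = 0.35). Without K14;Nogo-A replicate 7, wild-type replicate 3 or wild-type replicate 9, its unadjusted P was 0.12, 0.12 and 0.11.

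Tgfb1 (ENSMUSG00000002603, chromosome 7, 25687002 to 25705077), the isoform best known from immune cells and bone matrix, averaged 132 ± 10.8 CPM in K14;Nogo-A (SD, n = 4) and 139 ± 10.9 CPM in wild-type (SD, n = 3). Its log2 fold change of -0.08 had a 95% interval from -0.29 to 0.13 (adjusted p = 0.77 by edgeR's quasi-likelihood test). Tgfb3 (ENSMUSG00000021253, chromosome 12, 86056745 to 86079041), the isoform required for fusion of the palate, averaged 120 ± 3.53 CPM in K14;Nogo-A (SD, n = 4) and 118 ± 24.3 CPM in wild-type (SD, n = 3). Its interval ran from -0.25 to 0.29. The wide spread of Tgfb3 in wild-type came from replicate 8, at 90.1 CPM against 133 and 131 CPM in wild-type replicates 3 and 9. Without that library its log2 fold change was -0.14, against 0.02 with it.

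In the proportions of the 3 TGF-beta ligand genes, the genotypes were apart in Tgfb2 alone. Per kb of exon, Tgfb1 took 29.9 ± 1.64% of the 3 in K14;Nogo-A (SD, n = 4) and 29.8 ± 1.40% in wild-type (SD, n = 3). Tgfb2 took 27.5% to 30.3% in K14;Nogo-A, against 31.4% to 35.1% in wild-type. Tgfb3 took 38.5% to 42.0% and 33.4% to 39.6%, in the same order of genotypes. The shares of Tgfb2 did not overlap, and those of Tgfb1 and Tgfb3 did. The size of each share depends on the exon length used.

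The activin subunit genes had log2 fold changes of opposite sign, neither past the adjusted p. Inhba (ENSMUSG00000041324, chromosome 13, 16011851 to 16031621), which encodes the beta A subunit of activin A, was at 13.6, 19.1, 16.3 and 13.6 CPM in K14;Nogo-A replicates 1, 2, 7 and 10 and at 19.8, 22.2 and 20.7 CPM in wild-type replicates 3, 8 and 9. Every K14;Nogo-A library lay below every wild-type library, with replicate 2 closest to wild-type. The log2 fold change was -0.42 (SE 0.14, 95% interval -0.72 to -0.12, adjusted p = 0.27), or 0.748-fold. The counts behind it were 294 to 468 in K14;Nogo-A, against 432 to 913 in wild-type. Its unadjusted P was 0.05 or less in all 18 fits tried, which reuse the same libraries. The adjusted p of Inhba ran from 0.12 to 0.77 over the alternatives.

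Inhbb (ENSMUSG00000037035, chromosome 1, 119415465 to 119422248), which encodes the beta B subunit, was at 6.69, 10.5, 8.68 and 9.88 CPM in K14;Nogo-A and at 6.39, 5.60 and 9.08 CPM in wild-type, the replicates in the order above. The genotypes overlapped, since wild-type replicate 9 was above K14;Nogo-A replicates 1 and 7. On the log2 scale the fold change was 0.36 (SE 0.21, 95% interval -0.09 to 0.81, adjusted p = 0.48). Without wild-type replicate 9 it was 0.59 and past the study's thresholds, and without wild-type replicate 8 it was 0.22.

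Inhba took a smaller share of the activin beta subunit transcripts in the mutants. Per kb of exon it made up 57.4%, 54.8%, 55.6% and 47.8% of the pair in K14;Nogo-A, against 67.3%, 72.6% and 60.3% in wild-type, with the libraries ordered as for Inhba. All K14;Nogo-A shares lay below all wild-type shares, and K14;Nogo-A replicate 10 was the 1 library with more Inhbb than Inhba by this measure. The means were 53.9 ± 4.23% (SD, n = 4) and 66.7 ± 6.12% (SD, n = 3), given as a description with no test. Fst, the gene of follistatin, was at 25.8 ± 1.33 CPM in K14;Nogo-A (SD, n = 4) and 25.4 ± 2.31 CPM in wild-type (SD, n = 3). The ratio of Inhba to Fst per kb was 0.366 to 0.577 in K14;Nogo-A, against 0.507 to 0.670 in wild-type, with overlap in K14;Nogo-A replicate 2.

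**Figure D2:**
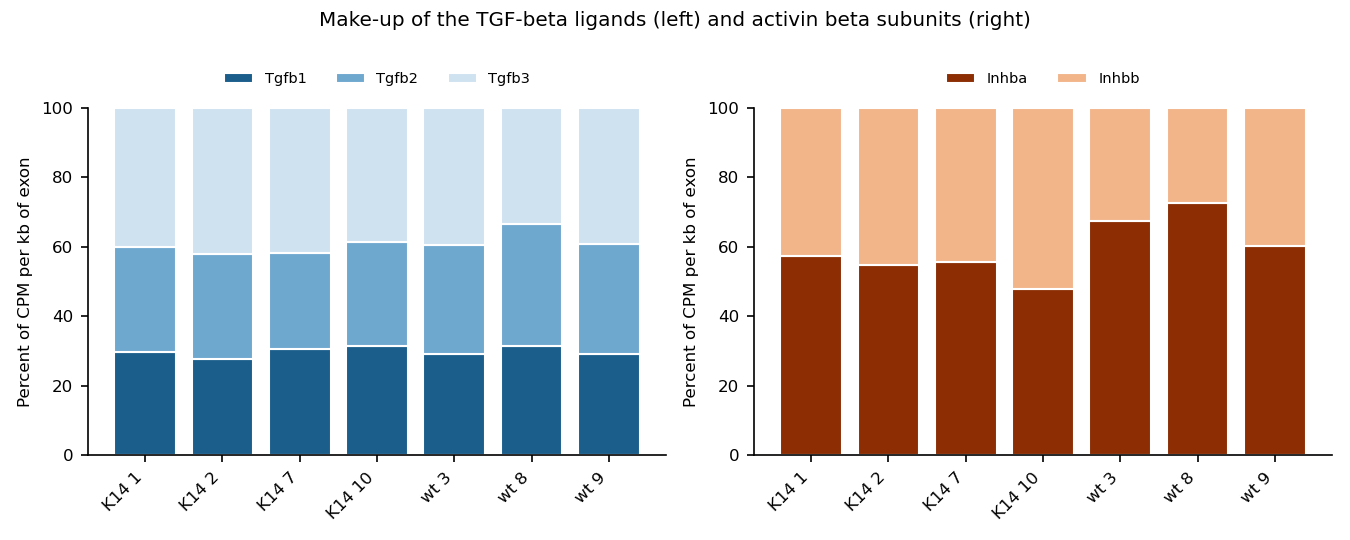
Share of each ligand gene (vertical axes, percent of the summed CPM per kb of exon) among Tgfb1, Tgfb2 and Tgfb3 (left) and between Inhba and Inhbb (right) in each library, K14;Nogo-A (K14) before wild-type (wt). Inhba takes 47.8% to 57.4% of the pair in K14;Nogo-A, against 60.3% to 72.6% in wild-type.

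Of the type I receptors, which carry the kinase that acts on Smad2 and Smad3, the activin receptor Acvr1b (ALK4) was higher in every mutant library. Acvr1b (ENSMUSG00000000532, chromosome 15, 101174067 to 101213684) was at 71.9, 98.3, 78.2 and 74.6 CPM in K14;Nogo-A replicates 1, 2, 7 and 10 and at 69.6, 46.7 and 64.1 CPM in wild-type replicates 3, 8 and 9. The lowest mutant, replicate 1, was close to the highest wild-type, replicate 3, and both extremes were set by 1 library (K14;Nogo-A replicate 2 and wild-type replicate 8). The log2 fold change was 0.43 (SE 0.15, 95% interval 0.10 to 0.75, adjusted p = 0.29). Without wild-type replicate 8 it was 0.27, the lowest of the fits that leave out 1 library, with an unadjusted P of 0.059, and without wild-type replicate 3 it was 0.55 and past the study's thresholds.

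Tgfbr1 (ALK5; ENSMUSG00000007613, chromosome 4, 47353222 to 47414931), the type I receptor of the TGF-beta ligands, was at 106, 146, 142 and 137 CPM in K14;Nogo-A and at 124, 101 and 125 CPM in wild-type, in the same order of replicates. K14;Nogo-A replicates 2, 7 and 10 lay above all wild-type libraries and replicate 1 among them. The fitted log2 fold change was 0.19 (95% interval -0.08 to 0.46, adjusted p = 0.53), and it ranged from 0.10 without wild-type replicate 8 to 0.28 without K14;Nogo-A replicate 1. With the Y-linked RNA added as covariate it was 0.07. The ratio of Acvr1b to Tgfbr1 per kb was 0.805 to 1.00 in K14;Nogo-A, against 0.687 to 0.831 in wild-type, with overlap.

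The type II receptors, which bind the ligands first, differed little. Tgfbr2 (ENSMUSG00000032440, chromosome 9, 116084293 to 116175360) averaged 273 ± 33.6 CPM in K14;Nogo-A (SD, n = 4) and 258 ± 45.4 CPM in wild-type (SD, n = 3). Its log2 fold change was 0.08, with a 95% interval from -0.22 to 0.37 (adjusted p = 0.84 by edgeR's quasi-likelihood test). Acvr2a (ENSMUSG00000052155, chromosome 2, 48814109 to 48903269) averaged 25.7 ± 2.71 CPM in K14;Nogo-A (SD, n = 4) and 24.0 ± 1.13 CPM in wild-type (SD, n = 3), with an interval from -0.15 to 0.34. Its exons share 446 bp with Orc4 on the opposite strand, and since no source used here says whether the counting used strand, reads there cannot be assigned to one gene. These intervals bound a difference in either receptor but do not show that the levels are equal.

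Tgfbr3, the gene of betaglycan, a co-receptor that presents TGF-beta to Tgfbr2 and also binds inhibin, had the log2 fold change farthest from 0 of the 10 genes over all 7 libraries, though with the Y-linked or the mesenchyme covariate that of Inhba (-0.48 and -1.47) was farther out. Tgfbr3 (ENSMUSG00000029287, chromosome 5, 107106570 to 107289629) was at 13.2, 22.3, 18.9 and 19.5 CPM in K14;Nogo-A replicates 1, 2, 7 and 10 and at 10.9, 9.35 and 14.9 CPM in wild-type replicates 3, 8 and 9. K14;Nogo-A replicates 2, 7 and 10 lay above all wild-type libraries, and replicate 1 below wild-type replicate 9. The log2 fold change was 0.67 (SE 0.20, 95% interval 0.24 to 1.10, adjusted p = 0.24), or 1.59-fold, and adjusted p ran from 0.045 to 0.78 over the alternatives. Without K14;Nogo-A replicate 1 it was 0.80 (adjusted p = 0.046), and by DESeq2 0.67 (adjusted p = 0.045). It was past the study's thresholds in 16 of the 18 fits tried, and not with the Y-linked RNA added as covariate (0.43) or with the mesenchyme markers as one (-1.40). Relative to Tgfbr2 per kb, Tgfbr3 was at 0.0723 to 0.0901 in K14;Nogo-A, against 0.0510 to 0.0623 in wild-type, without overlap. Its exons share 297 bp with Gm43422, a predicted gene with 236 counts over the 7 libraries.

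**Figure D3:**
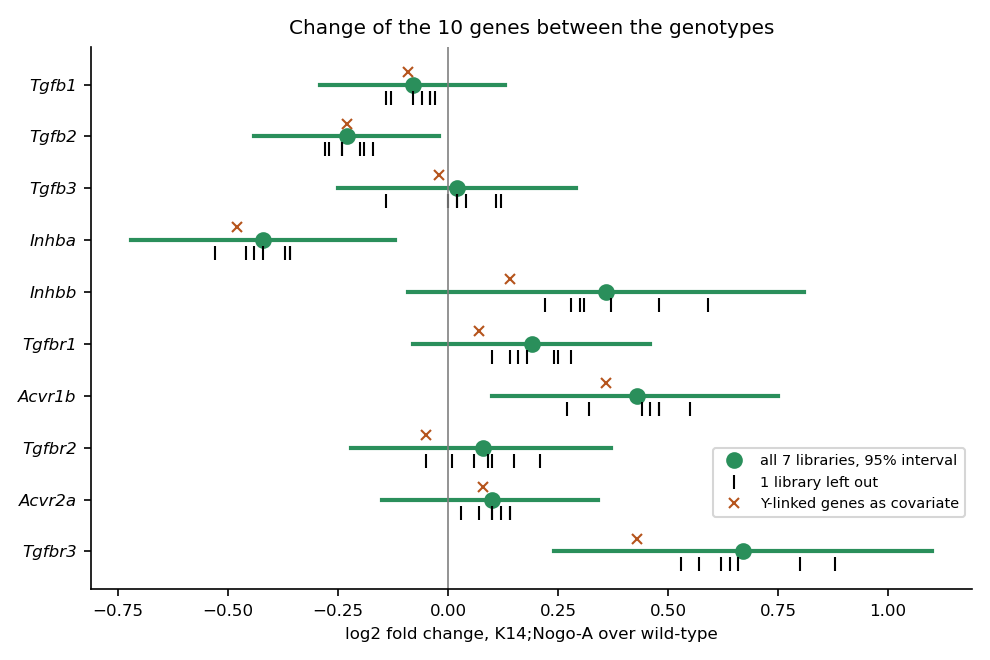
Log2 fold change of the 10 genes (horizontal axis, K14;Nogo-A over wild-type) with its 95% interval from edgeR (green), the values with 1 library left out (black ticks) and the value from the fit that adds Y-linked RNA (orange crosses). The intervals of Tgfb2, Inhba, Acvr1b and Tgfbr3 lie to one side of 0 before adjustment over all genes, and Tgfbr3 is at 0.43 with the covariate, against 0.67 without it.

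The genes whose pattern over the 7 libraries was closest to that of Tgfbr3 were Slc12a4, a potassium-chloride cotransporter, Anks6, a protein of primary cilia, and Ak1, an adenylate kinase. Their centred log2 CPM differed from that of Tgfbr3 by a root mean square of 0.07, 0.08 and 0.09, against a median of 0.46 over 12676 genes with a mean count of at least 50. Slc12a4 was at 276, 474, 441 and 418 CPM in K14;Nogo-A and at 264, 206 and 336 CPM in wild-type. Having been picked for likeness to Tgfbr3 in these libraries, Slc12a4 also had K14;Nogo-A replicate 1 near the wild-type level and wild-type replicate 8 lowest.

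Markers of other cells differed between the same libraries, with 0 of them called at an adjusted p under 0.05 by edgeR's quasi-likelihood test, while at an unadjusted P of 0.05 or less 5 of 12 epithelial and 3 of 8 ameloblast markers were higher, and 15 of 24 mesenchyme and 5 of 8 endothelial markers lower, where 6.25% of all genes were higher and 6.66% lower. Of the 12 epithelial markers 11 had positive log2 fold changes (median 0.30), 4 of them past the study's thresholds. Their lowest mean log2 CPM was in wild-type replicate 8, at 7.79 against 8.08 to 8.46 in the others. That library was also the lowest of all for Tgfb3, Inhbb, Tgfbr1, Acvr1b, Tgfbr2, Acvr2a and Tgfbr3, and the highest for Inhba. Of the 24 mesenchyme markers 23 had negative log2 fold changes (median -0.49), 7 of them past the study's thresholds, and of the 8 endothelial markers 7 (median -0.49). In these bulk samples fewer cells of a type and less RNA per cell cannot be told apart. Odontoblast markers lay at a mean log2 CPM of 6.79 to 8.60 in K14;Nogo-A, against 8.26 to 8.86 in wild-type, and markers of immune cells (1.89 to 2.60 and 2.16 to 2.92), of Schwann cells and neurons (0.465 to 1.29 and 0.423 to 1.57), of skeletal muscle (-2.01 to -0.373 and -0.86 to -0.42) and of erythroid cells (3.21 to 4.70 and 4.06 to 4.98) overlapped in the same order of genotypes. Prph, Myod1, Myog and Ttn among them were at 0 in at least 1 library. Of the 8 ameloblast markers 7 had positive log2 fold changes (median 1.30), 3 of them past the study's thresholds, and the list had a mean log2 CPM of 8.26 to 9.71 in K14;Nogo-A, against 7.82 to 8.51 in wild-type. With the mesenchyme markers as a covariate, every one of the 10 genes but Tgfb1 (0.10) had a negative log2 fold change. Inhba and Inhbb were both at -1.47, Acvr1b at -1.09 and Tgfb2 at -0.32. That fit extrapolates, because the mean log2 CPM of these markers does not overlap between the genotypes, and no member was called in it. The part of cell composition in the differences of the 10 genes was otherwise not tested.

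Between the libraries with and without Y-linked RNA, the sign of the difference was the same in 8 of the 10 genes. Inhba had a log2 fold change of -0.35 in the libraries without it (K14;Nogo-A replicates 2, 7 and 10 against wild-type replicate 9) and of -0.63 in those with it (K14;Nogo-A replicate 1 against wild-type replicates 3 and 8). For Tgfb2 the values were -0.30 without and -0.17 with Y-linked RNA, for Acvr1b 0.38 and 0.31, for Tgfbr3 0.44 and 0.39, and for Inhbb 0.09 and 0.16. The values of Tgfbr3, Inhbb and Acvr1b in both sets were thus smaller than the 0.67, 0.36 and 0.43 over all libraries. Those of Tgfbr1 were also smaller than its 0.19 over all libraries. Tgfbr2 was at -0.06 in both sets and at 0.08 over all libraries. Tgfb3 (-0.13 without and 0.09 with Y-linked RNA) and Tgfbr1 (0.18 and -0.08) differed in sign. Each set had 1 library in one of its arms, and the test of the difference between the sets, with adjusted p from 0.78 to 1 for the 10 genes, does not show that the sets are alike.

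Among the other genes of the pathway, 74 of 83 listed genes could be tested, and 1 fell and 0 rose by edgeR's quasi-likelihood test, against 0.0338% of all genes. By the study's thresholds 1 lay higher and 3 lay lower, where 2.02% of all genes were higher and 2.74% lower. At an unadjusted P of 0.05 or less 2 were higher and 5 lower, where 6.25% of all genes were higher and 6.66% lower. Of the 74, 29 log2 fold changes were positive and 45 negative, with a median of -0.04 beside -0.01 over all genes.

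In the list of latency and activation genes, whose products hold TGF-beta inactive in the matrix or free it, 0 of 16 were called and 1 was past the study's thresholds. This was Itgb6, the beta 6 integrin subunit that releases TGF-beta from its latent complex and whose loss disturbs enamel. It was at 26.2, 53.7, 39.4 and 35.5 CPM in K14;Nogo-A replicates 1, 2, 7 and 10 and at 23.1, 12.8 and 25.0 CPM in wild-type replicates 3, 8 and 9. Each mutant library was above each wild-type library, replicate 1 by little. The log2 fold change was 0.94 (SE 0.29, adjusted p = 0.27), with adjusted p from 0.016 (DESeq2, the 1 alternative that called it) to 0.77 over the alternatives. Of the latent binding protein genes, Ltbp1, Ltbp3 and Ltbp4 had -0.03, 0.10 and -0.07, and Ltbp2 had -0.56 (SE 0.35, adjusted p = 0.54) with overlap between the genotypes.

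Of 8 tested genes of related ligands and co-receptors, 0 were called, and 1, Mstn, the gene of myostatin, was lower at the study's thresholds with only 0 to 14 counts in a K14;Nogo-A library and 18 to 34 in a wild-type library. In CPM its genotypes overlapped (0 to 0.646 CPM in K14;Nogo-A, against 0.463 to 0.864 CPM in wild-type). Its log2 fold change of -1.67 ranged from -2.89 (without K14;Nogo-A replicate 1) to -1.21 (without K14;Nogo-A replicate 7) with 1 library left out, and the unadjusted P was 0.079 to 0.13 in 5 of these 7 fits. Inha, the inhibin alpha subunit that turns beta subunits from activin into inhibin, was at 13.8 to 16.9 CPM in K14;Nogo-A, against 10.8 to 13.6 CPM in wild-type. The genotypes did not overlap, with a log2 fold change of 0.33 (SE 0.14, adjusted p = 0.34). Of 6 other receptors tested none had an unadjusted P of 0.05 or less, and Acvr2b, the other activin type II receptor, was at 4.39 ± 0.549 CPM in K14;Nogo-A (SD, n = 4) and 4.02 ± 0.539 CPM in wild-type (SD, n = 3). The smallest P among them was that of Acvrl1, a receptor of endothelial cells, with a log2 fold change of -0.18.

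Of 5 antagonists tested none was called. Fstl1, a secreted relative of follistatin made mainly by mesenchymal cells, was at 955, 919, 1073 and 1013 CPM in K14;Nogo-A and at 1200, 1360 and 1094 CPM in wild-type. Each K14;Nogo-A library was below each wild-type one, with a log2 fold change of -0.30 (SE 0.11, adjusted p = 0.29). The Smads and their partners held no gene with an unadjusted P of 0.05 or less among 10 tested, and Smad2, Smad3 and Smad4 had -0.05, -0.02 and -0.10. The smallest P was that of Tab1, a partner of the kinase TAK1, with 0.24. Among 13 negative regulators none was called either. Smad7, which blocks type I receptors, had 0.18, and Pmepa1, a feedback inhibitor that TGF-beta induces, had 0.42 (SE 0.22, adjusted p = 0.45) with overlap between the genotypes.

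Of 17 response genes 1 fell, and 12 of 17 log2 fold changes were negative (median -0.15). The study's thresholds were passed by 2 in the lower and 0 in the higher direction. Over all 14791 genes tested, 0.0338% fell and 7613 had negative log2 fold changes, with a median of -0.01 over all. Of all genes, 2.74% passed those thresholds downward and 2.02% upward. The list was chosen with earlier results of these data known, so setting it against all genes is description and no test. The response gene that fell was Fn1, fibronectin, at 181 ± 14.2 CPM in K14;Nogo-A (SD, n = 4) and 319 ± 27.2 CPM in wild-type (SD, n = 3). Its log2 fold change was -0.82 (adjusted p = 0.028 by edgeR's quasi-likelihood test). Fn1 is also made by mesenchymal cells, and it was not called in 5 of the 7 fits that leave out 1 library (K14;Nogo-A 2, 7 and 10, wild-type 3 and 8), with values from -0.87 to -0.75 over the 7. With the mesenchyme markers as a covariate, in the fit that extrapolates, Fn1 was at -0.19. Snai1, a repressor of epithelial genes, was at 27.2, 33.1, 31.6 and 34.4 CPM in K14;Nogo-A and at 48.8, 49.4 and 38.3 CPM in wild-type, a log2 fold change of -0.53 (adjusted p = 0.18, and 0.014 to 0.87 over the alternatives, with 0.048 without wild-type replicate 9). With the mesenchyme covariate Snai1 was at -0.43. The part of cell composition in the differences of Fn1 and Snai1 was not tested. Ccn2, a classical target once named Ctgf, had -0.22, and Cdkn1a, the cell cycle inhibitor p21, had 0.18.

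**Figure D4:**
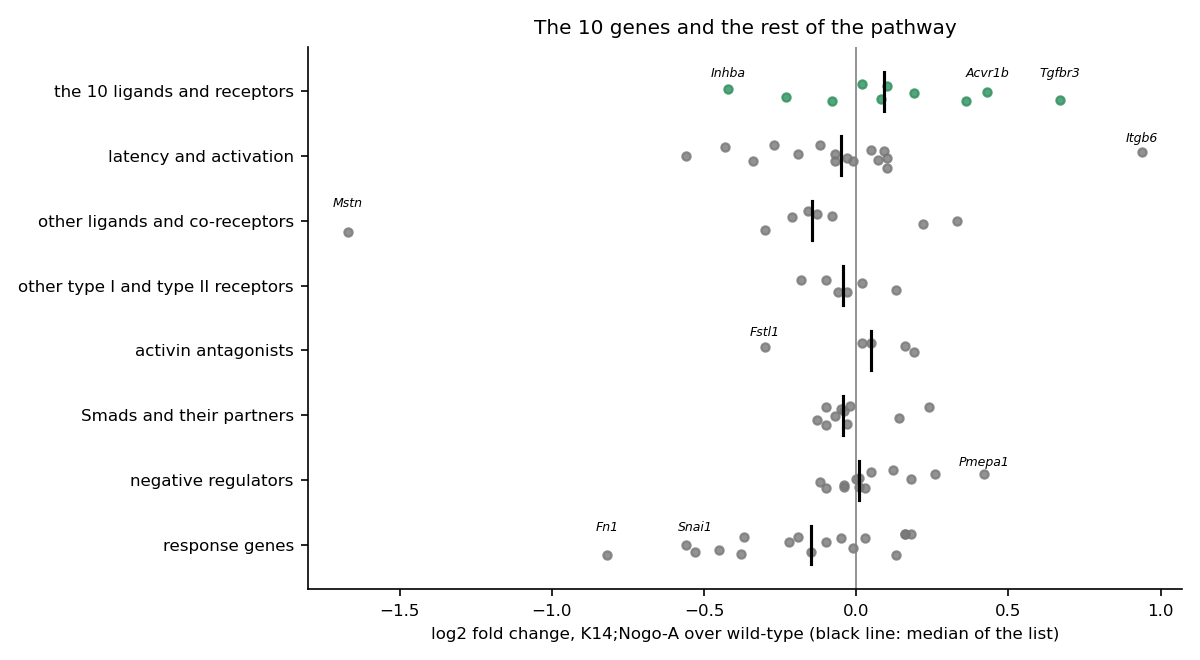
Log2 fold change (horizontal axis, K14;Nogo-A over wild-type) of the 10 ligands and receptors (green) and of the tested genes of 7 further pathway lists (grey, with the median of each list as a black line). Most genes lie near 0, with list medians between -0.15 and 0.09, and Itgb6 (0.94), Mstn (-1.67) and Fn1 (-0.82) lie farthest out.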

How the data were processed

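RNA of the dental epithelium, separated with Dispase, was sequenced by the authors from poly(A) libraries. The authors deposited unnormalized counts for each Ensembl gene, which they obtained with STAR 2.7.1 on GRCm38 and featureCounts after bcl2fastq 2.19, per the labels and the paper. No source used here gives the strand setting. Totals lay between 20929207 and 41219439 counts per library. Symbols, positions and exon lengths came from GENCODE M21 on GRCm38, and 25664 of 25700 IDs matched. The 36 without a symbol took 0.0348% of counts.

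A gene was tested when 50% or more of the libraries of one genotype had 10 counts or more, as in the study. The test was edgeR 4.0.16 in R 4.3.3 (TMM, robust quasi-likelihood, genotype alone), with Benjamini-Hochberg adjustment over all 14791 genes. A gene is called, or rose or fell, at an adjusted p under 0.05. The study's thresholds use a fold change of 0.5, read here as log2. CPM use TMM library sizes, and log2 CPM a prior count of 2. Levels between genes are per kb of union exon. Intervals come from the standard error and the degrees of freedom of the fit. The 3 genes most like Tgfbr3 were taken by the root mean square difference of centred log2 CPM. Genes named beside the 10 are, in each of 7 pathway lists, those past the study's thresholds or else the one with the smallest P. Inha, Fst, Acvr2b, Smads and some further list members were named after their values were seen.

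The 10 genes, the lists and the 9 marker lists were chosen with earlier results of these data known. Ltbp2 is in 2 pathway lists, and the response list shares Snai2 with the mesenchyme markers. Dspp is in the odontoblast and the ameloblast list. Each library is 1 pup. Smallest chi-square per degree of freedom between 2 libraries was 15.9, so none is a repeat sequencing of another. That value cannot show whether 2 libraries came from the same pup. The tests were checked on simulated counts. Alternatives were RLE and upper-quartile factors, the likelihood-ratio test, DESeq2 1.42.0, limma-voom (limma 3.58.1), other count filters, the mesenchyme markers or Y-linked genes as a covariate, and each library left out. The comparison of libraries with and without Y-linked RNA was set as values side by side, and its interaction test was added after the data were seen.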

Additional observations from a re-analysis of the deposited data

How the results depend on the processing

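Of 170 refits of the 10 genes under 17 alternatives, 156 kept the direction and the side of the adjusted p of 0.05. Since none of the 10 was called by edgeR's quasi-likelihood test, every refit without a call kept that side. The 156 are thus refits that called nothing and kept the sign, and they do not show that a difference is stable. The mesenchyme markers as a covariate turned Tgfb1 to 0.10, Tgfb3 to -0.69, Inhbb to -1.47, Tgfbr1 to -0.95, Acvr1b to -1.09, Tgfbr2 to -1.26, Acvr2a to -0.57 and Tgfbr3 to -1.40, and of the other named genes Itgb6 to -2.23, Mstn to 2.41, Fstl1 to 0.25 and Pmepa1 to -2.01. No gene was called in that fit (0 higher, 0 lower). At the study's thresholds 0 members were higher and 3 lower, and 0 pathway genes higher and 8 lower. Of all 14791 genes tested, 344 were higher and 606 lower by these thresholds in that fit. The Y-linked genes as a covariate turned Tgfb3 to -0.02 and Tgfbr2 to -0.05, and called 9 genes lower. At the study's thresholds that covariate left 0 members higher, where 203 of all genes tested were higher. DESeq2 called Tgfbr3 (0.67), the 1 member called, with 1 pathway gene higher and 2 lower, and 148 genes higher and 169 lower in all. The likelihood-ratio test called 2 pathway genes lower, and 58 genes higher and 108 lower. Without a filter 1 gene was called higher and 20 lower.

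With 1 library left out, log2 fold changes ranged from -0.14 to 0.12 for Tgfb3, from -0.05 to 0.21 for Tgfbr2 and from 0.53 to 0.88 for Tgfbr3. Members called higher numbered 0 to 1 at an adjusted p under 0.05 and 1 to 2 at the study's thresholds, and 0 to 1 were lower at the study's thresholds. Pathway genes called lower numbered 0 to 2, and at the study's thresholds 1 to 3 were higher and 1 to 4 lower. Over all genes 0 to 97 were called higher and 0 to 124 lower, and 146 to 542 higher and 240 to 545 lower at the study's thresholds. The counts at an adjusted p under 0.05 without K14;Nogo-A replicate 1 were 97 (higher) and 124 (lower), and those without wild-type replicate 9 were 45 and 48. The causes of these shifts were not tested. The paper describes the controls as littermates, but the sample labels used here state no litter. No paired analysis was therefore possible, and litter was not modelled. With 4 and 3 pups, differences inside the 95% intervals given for each gene could not be resolved, and these intervals are widest for the scarce genes Inhbb and Tgfbr3.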
